A study of Homo sapiens with 8 samples.

Results

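The 9 genes described here encode core histone variants that are classed here as replication-independent, although H2AX holds the histone stem-loop described below. They are H2AZ1 and H2AZ2 (H2A.Z), H2AX (H2A.X), H2AJ (H2A.J), MACROH2A1 and MACROH2A2 (macroH2A), H3-3A and H3-3B (H3.3) and CENPA (CENP-A, the H3 variant of centromeres). They were chosen by gene symbol, 9 of the 60606 rows of the count table, and all 9 passed the filter on low counts that left 17184 genes. Their RNA was measured in HEK293 cells, an established line from human embryonic kidney, as read counts per gene from total RNA. The treated group held 4 libraries of cells that received the tRNA-Asp-GTC-3'tDR mimic, a copy of a small RNA derived from a tRNA. The control group held 4 libraries of cells transfected with a scrambled mimic. All cells received 50 nM of mimic with Lipofectamine RNAiMAX and were collected 48 hours later, so every library carries the effect of transfection, and no untransfected cells are among the samples. The comparison asked whether the tDR mimic, set against the scramble, went with other levels of these variant mRNAs.

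Most histone protein is made in S phase from replication-dependent genes, whose mRNAs lack introns and end in a conserved stem-loop in place of a poly(A) tail. The variant genes are transcribed through the cell cycle or on their own schedule, and their mRNAs are as a rule spliced and polyadenylated. H2A.Z marks promoters and enhancers, H3.3 replaces H3 at active genes and in heterochromatin, H2A.X is phosphorylated beside DNA breaks, macroH2A carries a large additional domain and is linked to repressed chromatin, and CENP-A defines the centromere.

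Total counts ran between 5848305 and 9237986 in the tDR libraries and between 6536554 and 10557740 in the control libraries. Control replicate 1 stood apart from the other controls: the chi-square statistic per degree of freedom over genes was 3.58 to 4.85 for its pairs with them, against 2.15 to 3.14 for pairs of the other 3. Calls of the 9 variants that change without it are given with and without it. Markers fixed for HEK293 cells summed to 243 to 273 CPM in tDR libraries and 278 to 316 CPM in control libraries, and all 6 had counts in every library. NEFM carried the lower sum, at 163 to 185 CPM in tDR libraries and 211 to 245 CPM in controls. KRT8 (9.26 to 14.3 CPM in tDR libraries, 6.10 to 8.27 CPM in controls) and PAX2 (18.4 to 24.9 CPM in tDR libraries, 14.95 to 16.8 CPM in controls) lay wholly higher in tDR libraries. The blood cell marker CD68 was at 0 counts in all libraries, and the summed markers of blood cells, endothelium and fibroblasts (7 genes) stayed at or under 6.74 CPM for each type. The endothelial sum was 5.93 to 6.74 CPM in tDR libraries and 1.83 to 3.32 CPM in controls, the fibroblast sum 1.98 to 3.27 CPM in tDR libraries and 0.586 to 1.58 CPM in controls, and the blood cell sum 2.86 to 4.38 CPM in tDR libraries and 1.90 to 4.38 CPM in controls. The part of these low counts in the results was not tested. The labels do not say whether libraries came from separate cultures and give no batch or date, so the p-values rest on the spread among these 8 libraries, which may be technical. In such bulk samples fewer cells of a kind and less RNA per cell cannot be told apart.

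H2AX and H2AJ, whose principal transcripts are single exons, are the members closest in form to a replication-dependent histone message. The sequences below show the stem-loop region of each beside that of H2AC11, the replication-dependent H2A gene with the highest count among those that hold the motif, at a log2 fold change (tDR over control) of -0.62. Capitals mark the 16 bases of the stem-loop, or for H2AJ the best matching stretch, which lacks the full pattern. The letters come from the GENCODE 29 transcripts.
H2AX stem-loop: ccacaaaGGCCCTTTTAAGGGCCaccaccg
H2AJ stem-loop: cagcaaaGGCCCTTTTCATGGTCgtcccgc
H2AC11 stem-loop: aaccaacGGCTCTTTTCAGGGCCacccacg
The pattern searched on the transcript strand was the 16-base histone stem-loop with 10 fixed letters, GG and CTT, then T after 1 free base, AG after 1 more, and CC at the end, with the other bases free. It was found in 110 of 19684 protein-coding genes (0.559%) and in 20 of 21 replication-dependent core histone genes whose single-exon model runs 30 or more bases past the stop codon. Of the 9 variants only H2AX held it, at chr11:119094898-119094913 on the minus strand of GRCh38, where it begins 50 bases after the stop codon and all 6 stem positions pair. The annotated H2AX transcript then goes on for 1044 bases, and the H2AC11 transcript shown goes on for 1761 bases after its motif. In H2AJ the best matching stretch, at chr12:14774900-14774915 on the plus strand, begins 40 bases after the stop codon. It differs from that of H2AX by A10C, G12T and C15T, counted from the first base of the 16, and 5 of its 6 stem positions pair when G-U pairs are allowed. The H2AJ stretch matched 8 of the 10 fixed letters, and the other 7 variants matched 7 or 8 at best. The signal AATAAA or ATTAAA lay in the last 50 bases of the transcript of 7 of the 9 variants, H2AX and H2AJ among them, and in 73.0% of 19581 protein-coding genes.

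Of the 9 variants 4 fell in cells given the tDR, none rose and 5 did not pass the test. Those that fell were the H2A.Z genes H2AZ1 and H2AZ2 and the H3.3 genes H3-3A and H3-3B, by 11.4% to 19.0%. All 9 log2 fold changes (tDR over control) were below 0, from -0.30 to -0.06, with a median of -0.17, against a median of 0.02 over all 17184 genes. Over all genes 12.8% were called higher and 11.4% lower (adjusted p under 0.05, Benjamini-Hochberg, quasi-likelihood test of edgeR). Lower calls were commoner among protein-coding genes with a mean log2 CPM above 4, to which 8 of the 9 variants belong: 21.0% of these 8722 genes were called lower and 7.66% higher, with a median of -0.06. Summed over the 9 genes the level was 896 ± 17.3 CPM in tDR libraries and 1005 ± 18.0 CPM in control libraries (SD, n = 4 each), and the groups did not overlap. For the 4 called genes every tDR library lay below every control library, as it did for 10.8% of all genes tested.

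**Figure D1:**
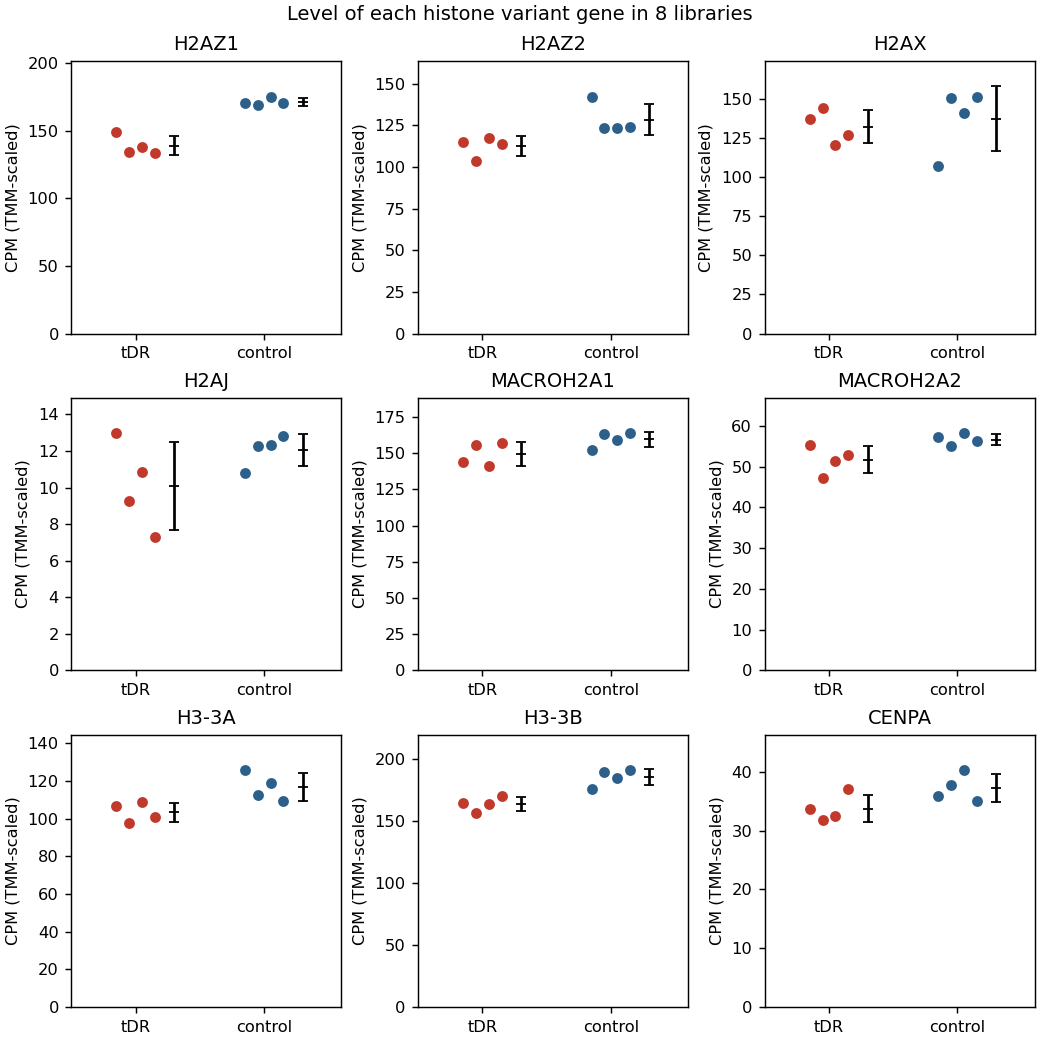
CPM with TMM-scaled library sizes (vertical axes from 0) of each variant gene in the 4 tDR and 4 control libraries, in replicate order from left to right; points are libraries and the bar beside them is the mean ± SD. H2AZ1, H2AZ2, H3-3A and H3-3B show no overlap between groups, and control replicate 1 is the low H2AX point and the high H2AZ2 point.

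H2A.Z is put into nucleosomes by SRCAP and EP400 complexes, and its 2 genes encode proteins that differ by a few residues. H2AZ1 (ENSG00000164032, chromosome 4, 99948086 to 99950388, minus strand, GRCh38) stood at 149, 134, 138 and 134 CPM in tDR replicates 1 to 4, against 170, 169, 175 and 170 CPM in control replicates 1 to 4. The controls lay close together, and tDR replicate 1 lay above the other tDR libraries, with a gap between the groups. Its log2 fold change was -0.30 ± 0.053 (SE), a level 19.0% lower, with an adjusted p of 1.96e-05 (edgeR, Benjamini-Hochberg). The count behind each value was 886 to 1282 reads in tDR libraries and 1108 to 1744 reads in controls.

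H2AZ2 (ENSG00000105968, chromosome 7, 44826791 to 44848083, minus strand) stood at 115, 104, 117 and 114 CPM in tDR replicates 1 to 4, against 142, 124, 123 and 124 CPM in control replicates 1 to 4. The groups again did not overlap, and control replicate 1 lay above the other 3 controls. The log2 fold change was -0.19 with an SE of 0.059, and it passed (Benjamini-Hochberg adjusted p = 0.0136, edgeR). Without control replicate 1 it was -0.14 and without tDR replicate 2 it was -0.16, and in neither case did it pass (edgeR, adjusted p = 0.0632 and 0.0726). H2AZ1 held 55.3% ± 1.37 of the counts of the pair in tDR libraries and 57.2% ± 1.84 in control libraries (SD, n = 4 each), and these shares overlapped. The divergent transcript H2AZ1-DT, which overlaps the start of H2AZ1 on the other strand, had 24 to 70 counts in tDR libraries and 26 to 69 in controls. Summed over each group, that was 4.68% of the H2AZ1 counts in tDR libraries and 3.07% in controls. The 8 annotated H2A.Z pseudogenes together had at most 7 counts in any library, 0.295% of the pair.

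The promoters of the called genes with a single listed start are shown because these genes moved in the same direction. The H3-3B start used lies 6114 bases inside the GENCODE span of the gene. Each is the 250 bases before the RefSeq start (GRCh38.p14), written 5′ to 3′ on the gene's strand, and capitals mark CCAAT or its reverse complement ATTGG.
H2AZ1 promoter, chr4:99950276-99950525, minus strand: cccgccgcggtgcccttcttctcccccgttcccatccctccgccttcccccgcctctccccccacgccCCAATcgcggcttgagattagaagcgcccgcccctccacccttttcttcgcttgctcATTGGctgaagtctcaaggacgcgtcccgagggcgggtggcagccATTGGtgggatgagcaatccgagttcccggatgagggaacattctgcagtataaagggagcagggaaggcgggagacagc
H2AZ2 promoter, chr7:44848088-44848337, minus strand: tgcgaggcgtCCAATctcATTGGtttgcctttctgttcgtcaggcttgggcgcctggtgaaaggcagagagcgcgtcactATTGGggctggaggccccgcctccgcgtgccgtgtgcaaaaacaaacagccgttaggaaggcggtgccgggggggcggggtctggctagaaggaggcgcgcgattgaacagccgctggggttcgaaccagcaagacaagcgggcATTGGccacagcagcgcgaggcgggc
H3-3B promoter, chr17:75779780-75780029, minus strand: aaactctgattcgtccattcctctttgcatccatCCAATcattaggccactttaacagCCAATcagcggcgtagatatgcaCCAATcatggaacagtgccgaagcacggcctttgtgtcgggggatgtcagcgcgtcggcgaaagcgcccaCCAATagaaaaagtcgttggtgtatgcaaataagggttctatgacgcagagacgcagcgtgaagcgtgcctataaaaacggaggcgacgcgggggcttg
CCAAT, the motif bound by the factor NF-Y, was found on either strand 3 times before H2AZ1, 4 times before H2AZ2 and 4 times before H3-3B. It also occurred 4 times before H2AX, 3 times before H2AJ and 2 times before CENPA, none of which passed the test. MACROH2A2 had none, and MACROH2A1 and H3-3A had it before 1 of 2 and 3 of 4 listed starts. It was held by 32.0% of the 35116 promoters of the same length. TATAA on either strand was found before H2AZ1, H2AX and H3-3B, against 18.9% of all promoters.

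H3-3A and H3-3B encode the same H3.3 protein from different mRNAs. H3-3B (ENSG00000132475, chromosome 17, 75776434 to 75785893, minus strand) stood at 165, 156, 164 and 170 CPM in tDR replicates 1 to 4, against 176, 190, 185 and 191 CPM in control replicates 1 to 4. H3-3A (ENSG00000163041, chromosome 1, 226061851 to 226072001, plus strand) stood at 106, 97.4, 109 and 101 CPM in tDR replicates 1 to 4, against 126, 112, 119 and 109 CPM in control replicates 1 to 4. Neither gene's groups overlapped, although the highest tDR library and the lowest control library of H3-3A were close, at 108.7 and 109.2 CPM. The log2 fold changes were -0.18 ± 0.052 for H3-3B and -0.17 ± 0.060 for H3-3A (SE; edgeR, Benjamini-Hochberg adjusted p = 0.00784 and 0.0272). The H3-3A call ended without control replicate 1 (-0.14), tDR replicate 2 (-0.15) or tDR replicate 4 (-0.16), with adjusted p of 0.0823, 0.0968 and 0.0852 (edgeR). The H3-3B call held without each single library. Both H3.3 calls ended with background subtracted, with library size alone, with the gene span correction and with the trend from expressed coding genes, where H3-3B had adjusted p of 0.0973, 0.158, 0.310 and 0.363 (edgeR). H3-3B held 61.3% ± 1.13 of the pair's counts in tDR libraries and 61.4% ± 2.36 in control libraries, and these shares overlapped.

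Reads of the H3.3 genes could be placed elsewhere. The counts below are those of whole genes, so they do not show how many H3.3 reads were misplaced or lost. The 47 H3 pseudogenes held at most 10 counts in any library, 0.473% of the pair. UNK, which overlaps H3-3B on the other strand, had 394 to 748 counts in tDR libraries and 460 to 692 in controls. H3-3A-DT had 22 to 37 in tDR libraries and 14 to 29 in controls. Summed over each group, UNK came to 43.3% of the H3-3B counts in tDR libraries and 36.3% in controls. H3-3A-DT came to 3.77% of the H3-3A counts in tDR libraries and 2.20% in controls. None of the sources used here states the strand setting of the counting, so reads where these genes overlap could belong to either.

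H2AX (ENSG00000188486, chromosome 11, 119093854 to 119095467, minus strand) stood at 137, 144, 121 and 127 CPM in tDR replicates 1 to 4, against 107, 150, 141 and 152 CPM in control replicates 1 to 4. Control replicate 1 was the lowest of all 8 libraries and the other 3 controls included the 2 highest. The log2 fold change was -0.06 ± 0.068 (SE) with a 95% interval of -0.19 to 0.08 (edgeR, Benjamini-Hochberg adjusted p = 0.576). Without control replicate 1 it was -0.17 and passed (edgeR, adjusted p = 0.0218), so that 1 library decides the call. The summed replication-dependent H2A genes were lowest in the same control, at 1180 CPM, against 1322 to 1336 CPM in the other 3 controls.

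H2AJ (ENSG00000246705, chromosome 12, 14774383 to 14778002, plus strand), whose protein accumulates in senescent cells, was the rarest variant, with 68 to 84 counts in tDR libraries and 78 to 131 in controls. It stood at 12.97, 9.26, 10.8 and 7.30 CPM in tDR replicates 1 to 4, against 10.8, 12.3, 12.3 and 12.8 CPM in control replicates 1 to 4. The groups overlapped, and the tDR libraries held both the highest and the lowest value. Its log2 fold change of -0.28 ± 0.17 (SE) had a 95% interval of -0.61 to 0.06, which includes both 0 and a change larger than that of H2AZ1 (edgeR, Benjamini-Hochberg adjusted p = 0.227). It was -0.42 without tDR replicate 1 and -0.14 without tDR replicate 4, and passed in neither case (edgeR, adjusted p = 0.0744 and 0.628).

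The macroH2A genes and CENPA had fitted levels 6.23% to 8.82% below control, and none of the 3 passed. MACROH2A1 (chromosome 5, 135333900 to 135399914, minus strand) stood at 144, 156, 141 and 157 CPM in tDR replicates 1 to 4, against 152, 163, 159 and 164 CPM in control replicates 1 to 4, which gave a log2 fold change of -0.09 with an SE of 0.054 (adjusted p = 0.211, edgeR). MACROH2A2 (chromosome 10, 70052796 to 70112280, plus strand) ranged over 47.3 to 55.2 CPM in tDR libraries and 55.0 to 58.2 CPM in controls, with a log2 fold change of -0.13 and an SE of 0.077 (adjusted p = 0.211, edgeR). Both overlapped between groups, MACROH2A2 through tDR replicate 1 alone. MACROH2A1 held 74.3% ± 1.93 of the pair's counts in tDR libraries and 73.8% ± 0.981 in control libraries. On the other strand, PITX1-AS1 overlaps MACROH2A1, with 163 to 324 counts in tDR libraries and 191 to 267 in controls. AIFM2 overlaps MACROH2A2 there, with 36 to 77 in tDR libraries and 47 to 52 in controls. Summed over each group, PITX1-AS1 came to 19.9% of the MACROH2A1 counts in tDR libraries and 17.4% in controls. AIFM2 came to 14.5% of the MACROH2A2 counts in tDR libraries and 10.3% in controls.

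CENPA (chromosome 2, 26764289 to 26801067, plus strand) stood at 33.7, 31.9, 32.5 and 37.0 CPM in tDR replicates 1 to 4, against 35.8, 37.8, 40.3 and 35.1 CPM in control replicates 1 to 4. Its groups overlapped only because tDR replicate 4 lay above the lower controls. The log2 fold change was -0.13 ± 0.093 (SE) with a 95% interval of -0.32 to 0.05 (edgeR, Benjamini-Hochberg adjusted p = 0.307). SLC35F6, which overlaps the annotated CENPA span on the same strand, is listed at 0 in all libraries. Whether its reads were lost in counting, or counted to CENPA, was not tested.

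**Figure D2:**
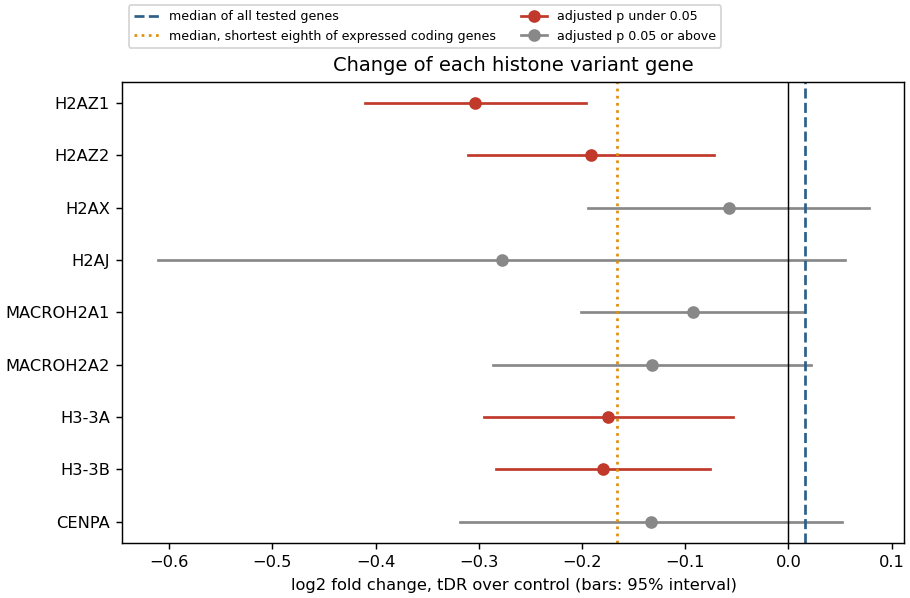
Log2 fold change of each variant, tDR over control (horizontal axis), with its 95% interval; red marks adjusted p under 0.05 and grey the rest. The 4 called genes lie between -0.30 and -0.17; the dashed line is the median of all tested genes (0.02) and the dotted line that of the shortest eighth of expressed coding genes (-0.17).

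Levels can be compared between genes only per length. Per kilobase of the principal transcript, H2AZ2 (150 ± 7.92) and H2AZ1 (142 ± 7.31 CPM per kb) were highest in tDR libraries, and H2AZ1 (175 ± 2.86) and H2AZ2 (171 ± 12.3) in controls, with no difference beyond their SD. H2AX and H3-3A followed, at 82.0 ± 6.58 and 79.0 ± 3.95 CPM per kb in tDR libraries and 85.2 ± 12.9 and 89.1 ± 5.63 in controls, within their spread of each other. H3-3B and MACROH2A1 came next, at 60.6 and 53.6 CPM per kb in tDR libraries and 68.6 and 57.2 in controls. MACROH2A2, CENPA and H2AJ were lowest, at 26.1, 23.3 and 15.7 CPM per kb in tDR libraries and 28.6, 25.7 and 18.7 in controls. The order depends on the length used: over all annotated exons H2AX was highest, and H2AZ2 stood at 23.7 CPM per kb in tDR libraries and 27.0 in controls.

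Other short, well expressed mRNAs showed differences of like size. Among the 8722 expressed protein-coding genes the median log2 fold change was -0.17 in the eighth with the shortest transcripts (207 to 1686 bases) with 40% called lower. In the eighth with the longest it was -0.01, with 13.9% called lower. H2AZ1, H2AZ2, H3-3A, H2AX and CENPA have transcripts within that shortest eighth, H2AJ has a transcript of 644 bases but a mean log2 CPM under 4, and H3-3B, at 2705 bases, lies in an eighth with a median of -0.08. Low GC content went with lower values too: the median was -0.11 in the eighth of lowest GC (31.8% to 39.1%), where H3-3A lies at 38.5%, and 0.03 in that of highest GC.

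**Figure D3:**
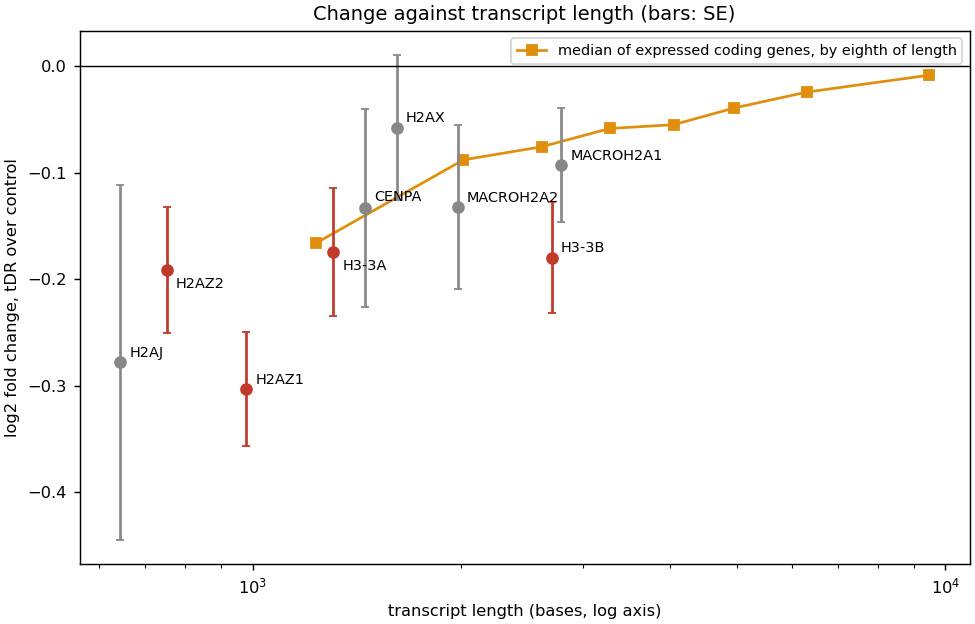
Log2 fold change, tDR over control (vertical axis), against transcript length in bases on a log axis, for the 9 variants with their SE (red, adjusted p under 0.05); squares are medians of expressed coding genes by eighth of length, placed at the median length. The medians run from -0.17 for the shortest to -0.01 for the longest, and the called genes lie between -0.30 and -0.17.

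When the trend with length and GC content was taken from those expressed coding genes and removed from each library, none of the 9 variants passed (edgeR, Benjamini-Hochberg, lowest adjusted p = 0.145), and 0 had an unadjusted p under 0.05. H2AZ1 was then at -0.10, H3-3B at -0.06, H2AZ2 at 0.04 and H3-3A at 0.03, and CENPA also turned, to 0.02. A trend was also taken from all those of the 17184 genes with an annotated length and GC content, many of them short and rare noncoding RNAs. It left 5 calls, with H2AZ1 at -0.40 and MACROH2A1 added at -0.15 (edgeR, adjusted p = 0.0171). With gene span in place of transcript length 4 passed, H2AZ1 (-0.18), H2AZ2 (-0.17), MACROH2A1 (-0.22) and MACROH2A2 (-0.25), and the H3.3 genes did not, at -0.07 and -0.05. The calls thus depend on which genes set the trend and on which length enters it. Over all 17184 genes, lower calls numbered 1963 in the main fit and 2918 with the all-gene trend by transcript length. They numbered 3226 with gene span and 1070 with the trend from expressed coding genes. These corrections other than the one from all genes by transcript length were chosen after the data were seen. Scaling to library size alone left 1 call, H2AZ1 at -0.22, with the median of all genes then at 0.10 and 949 genes called lower. Subtracting a background density measured over 381 olfactory receptor genes also left 1 call, H2AZ1 at -0.25. The filter and the scaling were then redone, and 1095 of 15097 tested genes were called lower. All 9 variants moved toward 0, H2AX from -0.06 to -0.001 and H3-3B from -0.18 to -0.12. The part of the new scaling in this was not tested. The density was 0.137 to 0.231 counts per kb in tDR libraries and 0.0908 to 0.151 in controls, not scaled to library size. Background came to at most 2.81% of the counts of any variant. For H2AZ1 it was 0.0406% in tDR libraries and 0.0210% in controls. What the difference in density reflects was not tested.

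**Figure D4:**
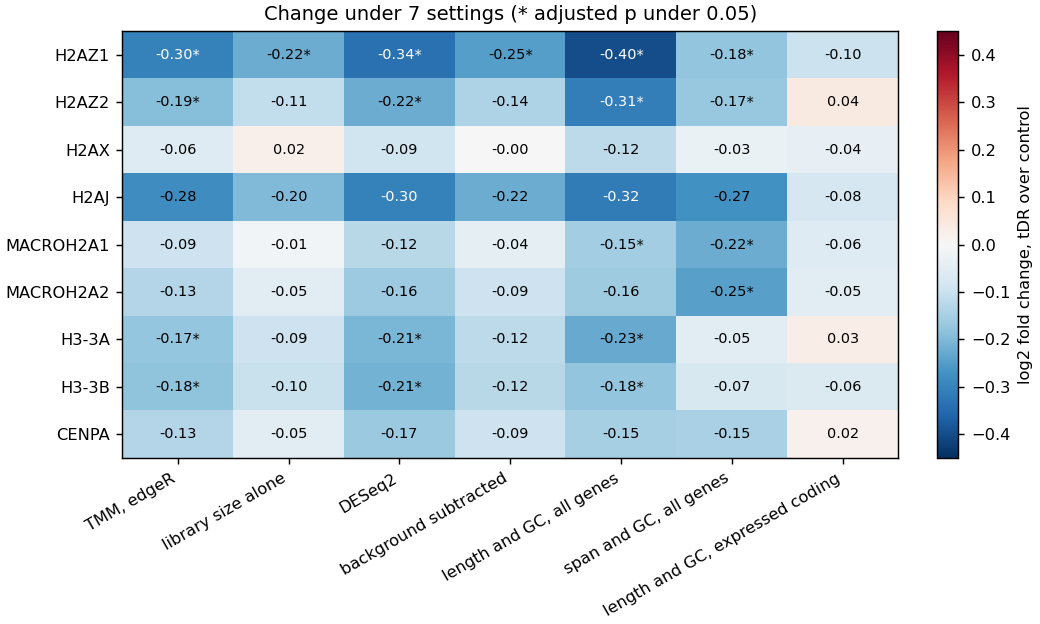
Log2 fold change, tDR over control (colour and printed value), of each variant (rows) under 7 settings (columns); an asterisk marks adjusted p under 0.05. H2AZ1 is called in 6 of the 7 columns, H2AX in none, and no variant in the last one.

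Beside the median of -0.17 of the variants, the 40 tested replication-dependent core histone genes had a median log2 fold change of -0.58, with 31 lower, 0 higher and 9 not passed. With the trend from expressed coding genes removed these medians were -0.05 for the variants and -0.32 for the replication-dependent genes, of which 25 were then lower. Among replication-dependent H2A genes 10 of 11 fell (median -0.62), and among H3 genes 5 of 8 (median -0.53). The difference between variants and replication-dependent genes was not tested. The H2A.Z, H2AX and H3.3 genes were each set against the replication-dependent genes of their class, and held larger shares in tDR libraries. H2AJ, macroH2A and CENPA were not compared in this way. Summed replication-dependent genes were at log2 ratios (tDR over control) of -0.67 for H2A and -0.63 for H3. The H2A.Z and H3.3 sums were themselves lower, at -0.25 and -0.18. The H3.3 genes held 35.8%, 37.1%, 36.8% and 37.8% of the reads of H3.3 and replication-dependent H3 genes in tDR replicates 1 to 4, against 32.7%, 29.1%, 28.95% and 29.3% in control replicates 1 to 4. The H2A.Z genes held 23.7% ± 0.647 of the reads of H2A.Z and replication-dependent H2A genes in tDR libraries and 18.9% ± 1.39 in controls, and H2AX, set against the same H2A genes, held 14.0% ± 0.855 in tDR libraries and 9.59% ± 0.881 in controls (SD, n = 4 each). None of these shares overlapped between groups. Reads of near-identical replication-dependent copies may be counted in part, and shares of reads are not shares of molecules, since transcripts differ in length.

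**Figure D5:**
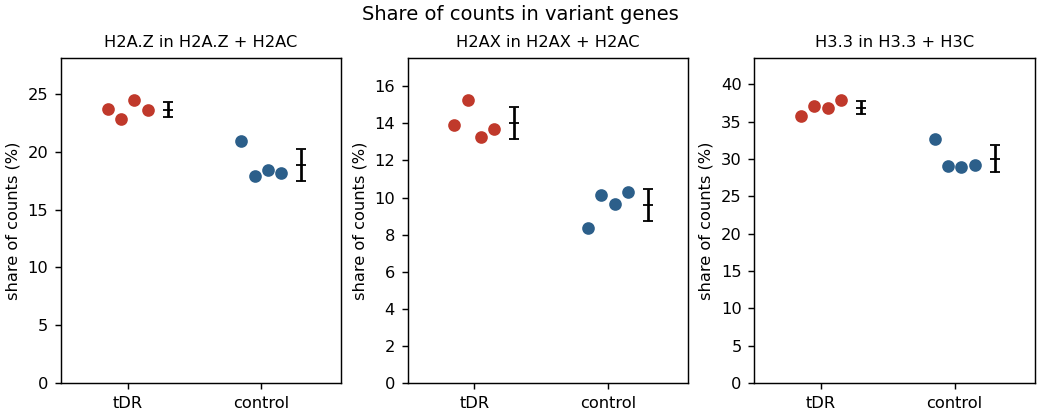
Share of reads in percent (vertical axes from 0) held by H2A.Z genes, H2AX and H3.3 genes within their class with the replication-dependent H2A (H2AC) or H3 (H3C) genes, per library; bars are mean ± SD of 4 libraries. The tDR libraries lie above the control libraries in all 3 panels, with H3.3 at 35.8% to 37.8% in tDR and 28.95% to 32.7% in control libraries.

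Genes that place or read the variants were taken from a list for each kind of variant. Beyond the 3 called genes of smallest p in each list, genes named here were singled out after their values were seen. None of the 44 tested genes of these 5 lists rose (1 at an unadjusted p under 0.05, and 0 by DESeq2) and 20 fell, against 11.4% lower over all genes and 21.0% among expressed coding genes. Of 6 tested H3.3 deposition genes (HIRA, UBN1, UBN2, CABIN1, DAXX and ATRX) none passed, with a median of -0.06 and log2 fold changes of -0.11 to 0.01 (edgeR, 0 of 6 at an unadjusted p under 0.05, and 1 lower by DESeq2). ASF1A is listed at 0 in all libraries, and whether its reads were lost in counting was not tested, so the 0 does not show a lack of expression. HIRA, whose complex deposits H3.3 at active genes, stood at 62.0 ± 3.41 CPM in tDR libraries and 61.6 ± 8.24 CPM in controls. With either all-gene correction, for transcript length or gene span with GC content, 3 of these 6 were called lower.

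The list of H2A.Z exchange had 16 tested genes, of which 7 fell. The median of the 16 was -0.10, and ACTR6 was not tested. RUVBL1, an ATPase shared by several remodelling complexes, averaged 192 ± 9.67 CPM in tDR libraries and 253 ± 5.41 CPM in control libraries (log2 fold change -0.40, adjusted p = 1.24e-08, edgeR). ANP32E, the chaperone that removes H2A.Z, averaged 305 ± 13.4 CPM in tDR libraries and 383 ± 30.4 CPM in controls (-0.33). ACTL6A, an actin-related subunit of several remodellers, averaged 69.9 ± 4.58 CPM in tDR libraries and 91.0 ± 6.78 CPM in controls (-0.39). The catalytic subunits SRCAP and EP400 did not pass, at 0.09 and -0.08. With library size alone 4 of the 16 were lower and 1 was higher, and with background subtracted 4 were lower.

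Of 8 tested genes of CENP-A deposition and the inner centromere 4 fell, and the median of the 8 was -0.13. Among them were RBBP7, a histone-binding subunit of several chromatin complexes (237 ± 8.84 CPM in tDR libraries and 321 ± 18.4 CPM in controls, -0.44), MIS18A (-0.28), which helps license new CENP-A, and the kinase gene PLK1 (-0.18). HJURP, the CENP-A chaperone, was at -0.02 and did not pass (edgeR, Benjamini-Hochberg adjusted p = 0.844). CENPN and OIP5 are listed at 0 in all libraries, with the same doubt as for ASF1A. With background subtracted or with the trend from expressed coding genes 2 of these 8 were called lower, and with library size alone 1 was.

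Of 10 genes that phosphorylate or read H2A.X, 5 fell, and the median of the 10 was -0.12. Among those that fell were MDC1, which binds phosphorylated H2A.X (47.7 ± 3.21 CPM in tDR libraries and 63.0 ± 7.21 CPM in controls, -0.41), the ubiquitin ligase gene RNF168 (-0.23) and the kinase gene PRKDC (-0.16). The kinase genes ATM and ATR were at -0.10 each and did not pass. Leaving out tDR replicate 3 or 4 left 3 lower calls of the 10, library size alone or background subtraction left 2, and the correction for gene span gave 8. Of the 10, 1 was called higher with library size alone and with the trend from expressed coding genes. All 4 genes listed as macroH2A partners fell, with a median of -0.28: SUPT16H and SSRP1, the subunits of the FACT chaperone (-0.33 and -0.28), PARP1 (-0.29) and the remodeller gene HELLS (-0.24). Of 18 other variant or solitary histone genes 4 were tested and 1 fell, H2BU1 (40.9 ± 6.36 CPM in tDR libraries and 57.0 ± 5.86 CPM in controls, -0.49; edgeR, Benjamini-Hochberg adjusted p = 4.34e-05), while the linker histone gene H1-10 (-0.28) did not pass. All 4 had an unadjusted p under 0.05, and the count of lower calls was 3 without control replicate 1, 2 without tDR replicate 2 or 3, 2 with the gene span correction, 3 with no filter on low counts and 4 with the length and GC correction from all genes.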

How the data were processed

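The deposited table, made by the authors, holds raw counts of reads for each gene as whole numbers, in 8 columns of which each is 1 library. Per the labels' protocols, TRIzol total RNA was made into stranded low-input libraries (SMARTer Pico, version 2). The submitters' processing notes name DESeq2 1.30.1, featureCounts 2.0.2, STAR 2.7.8a, cutadapt 2.10 and FastQC 0.11.9, with the builds GRCh38.p13 and hg38. The sources used here do not state the strand setting, annotation release, use of molecular identifiers or handling of multiply mapping reads.

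Counts were fitted with edgeR 4.0.16 in R 4.3.3 (quasi-likelihood F test, TMM factors, edgeR's own filter on low counts, group as the only term, all 8 libraries), and p-values were Benjamini-Hochberg adjusted over 17184 genes. Single-gene levels are CPM with TMM-scaled library sizes. GENCODE 29 on GRCh38 gave positions, lengths and GC content for 57051 of 60606 rows, and 1 transcript per gene, by preference the APPRIS principal one, gave its length. The steps were tested on simulated counts that held no difference between groups by length, GC content or background. That test does not bear on such trends. Alternatives were library size alone, DESeq2 1.42.0, no low-count filter, the replicate number as a block, corrections for length or gene span and GC content (loess, span 0.3), subtraction of a background density from 381 olfactory receptor genes, and each library left out. The correction for gene span and the correction with a trend from expressed coding genes were added after the data were seen. Replicate numbers were not used to pair the libraries in the main fit. The members, the gene lists and the rule for named genes (all members, and up to 3 called genes per list with the smallest p) were chosen with earlier results of these data known. Some genes of the lists are counted but not reported here by name.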

Additional observations from a re-analysis of the deposited data

Results flagged for a closer look

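H2AZ2 in control replicate 1 stood at 142.2 CPM, far above the 123 to 124 CPM of the other 3 control libraries, while its tDR libraries ranged over 104 to 117 CPM. It was the 1 value so far from its group among the 18 groups of 4 libraries examined (9 genes in tDR and in control libraries), and chance flags about 1 in 20 such groups. Without this library the log2 fold change (tDR over control) of H2AZ2 was -0.14 and no longer passed (edgeR, Benjamini-Hochberg adjusted p = 0.0632). What sets this library apart was not tested.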

How the results depend on the processing

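H2AZ1 kept its call under 16 of 17 alternatives, with log2 fold changes of -0.40 to -0.18, and lost it at -0.10 with the trend from expressed coding genes. The count of variants called lower was 4, and became 1 with background subtracted, 1 with library size alone, 0 with the length and GC trend from expressed coding genes, and 2 to 4 with 1 library left out (2 without tDR replicate 2). No variant was called higher under any alternative. Signs turned for H2AX with library size alone (0.0225) and, with the trend from expressed coding genes, for CENPA (0.0200), H2AZ2 (0.0417) and H3-3A (0.0282), none past the threshold; the cause was not tested. Over all genes 2206 were called higher, against 1115 with background subtracted and 1441 by DESeq2, and 1640 to 2203 with 1 library left out. Lower calls numbered 1963, against 1095 with background subtracted, 949 with library size alone and 1070 with the trend from expressed coding genes. With the all-gene corrections they numbered 2918 (transcript length and GC) and 3226 (gene span and GC). With 1 library left out they numbered 1512 to 2092. Same-numbered libraries showed little shared deviation (correlations -0.03 to 0.07). Replicates 2 (0.070) and 4 (0.019) of the tDR group correlated best with their own number, and replicates 1 and 3 did not. The main fit therefore used no pairing. With so few libraries per group, these correlations cannot exclude a culture or batch shared by number. With the replicate block 2040 genes were called higher, 1835 lower and 4 variants lower, and H2AZ1 stood at -0.30. Depth limits H2AJ most, with 68 to 131 counts per library.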
